A study of Mus musculus with 6 samples.

Results

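The Ikaros family of zinc finger transcription factors was read in activated mouse cytotoxic T cells that carry, or lack, a phosphorylation-deficient mutant of HDAC7. The family comprises Ikzf1 (Ikaros), Ikzf2 (Helios), Ikzf3 (Aiolos), Ikzf4 (Eos) and Ikzf5 (Pegasus). Members were every probe set that the Mouse Genome 430 2.0 annotation assigns to exactly 1 of these 5 symbols, which gave 13 of the 45101 probe sets on the array and 5 of 18193 genes. Ikzf2, Ikzf3 and Ikzf4 have 3 probe sets each, and Ikzf1 and Ikzf5 have 2 each. Probe sets of the same gene share its transcripts, so they are not replicates of one another.

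Ikaros factors bind DNA through zinc fingers near the amino end and pair with each other through fingers near the carboxyl end. They recruit the nucleosome remodelling and deacetylase complex and other corepressors, which contain the class I deacetylases Hdac1 and Hdac2, and they can also activate genes. Ikaros and Aiolos are best known for lymphocyte development, Helios for regulatory and activated T cells, Eos for its work with Foxp3 in regulatory T cells, and Pegasus is the most divergent and most broadly expressed member.

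The study compared 3 samples of GFP positive cells with 3 samples of GFP negative cells, each read on 1 array. All 6 samples came from spleens of C57Bl/6 mice with the P14 transgenic T cell receptor, specific for gp33, a peptide of lymphocytic choriomeningitis virus. The spleen cells received gp33 for 24 h and then a retrovirus carrying the GFP-tagged HDAC7 mutant, and were sorted on GFP. GFP positive cells express the mutant, and GFP negative cells, labelled control, are cells of the infected cultures without GFP, so an empty vector is not part of the comparison. The samples are labelled biological replicates, with no word on separate animals or cultures, so each p-value covers only the spread of these 6, which may be technical.

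The sort and the cell type were checked on their own genes. Hdac7 probe set 1420812_at read 8.09 to 8.18 in GFP positive samples and 4.81 to 4.86 in GFP negative samples on the log2 scale. Its other probe set, 1420813_at, went the other way, at 6.17 to 6.21 in GFP positive and 6.65 to 6.81 in GFP negative samples, and whether each matches the viral transcript was not analysed here. Of 6 T cell markers 5 rose in the test described below, which called 24.6% of all tested genes higher. Cd8a and Cd8b1 rose by 1.24 and 1.15, and Cd3g, Cd247 and Cd3e by 0.67, 0.57 and 0.55. Cd3d changed by -0.05 and did not pass. The summed linear signal of all 6, again in log2, was 12.43 to 12.68 in GFP positive and 11.84 to 11.98 in GFP negative samples. Cd4 read 2.81 to 2.83 in GFP positive and 2.83 to 2.94 in GFP negative samples. TrpnX probe sets, controls for a bacterial gene, read 0.60 to 0.72 in GFP positive and 0.60 to 0.65 in GFP negative samples, and values near those lie at background. Over all 64 control probe sets, GFP positive 3 and GFP negative 1 deviated most from the median array, by 0.22 and 0.18 on average, against 0.09 to 0.11 for the other 4 arrays.

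Ikzf2, Ikzf4 and Ikzf1 rose in GFP positive cells, by different amounts. Ikzf2 rose most, by 1.88 on its brightest probe set, followed by Ikzf4 with 0.96 and Ikzf1 with 0.70 (log2). Ikzf3 was lower by 0.32, a fall close to the test threshold, and Ikzf5 did not pass. Probe sets were tested with limma over all 27022 probe sets above a filter on dim signals, with Benjamini-Hochberg adjustment and a threshold of 0.05. Of the 13 probe sets, 11 lay above the filter, and among these 5 rose, 2 fell and 4 did not pass. Of all tested probe sets, 32.5% were called, 19.3% higher and 13.2% lower. In 9 of the 11 the GFP positive and GFP negative values lay wholly apart. Over all tested probe sets, the share that lay wholly apart was 48.2%. A dim probe set passes the filter more readily when it is raised in 1 group, so these counts describe the probe sets that passed and not the whole family.

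**Figure D1:**
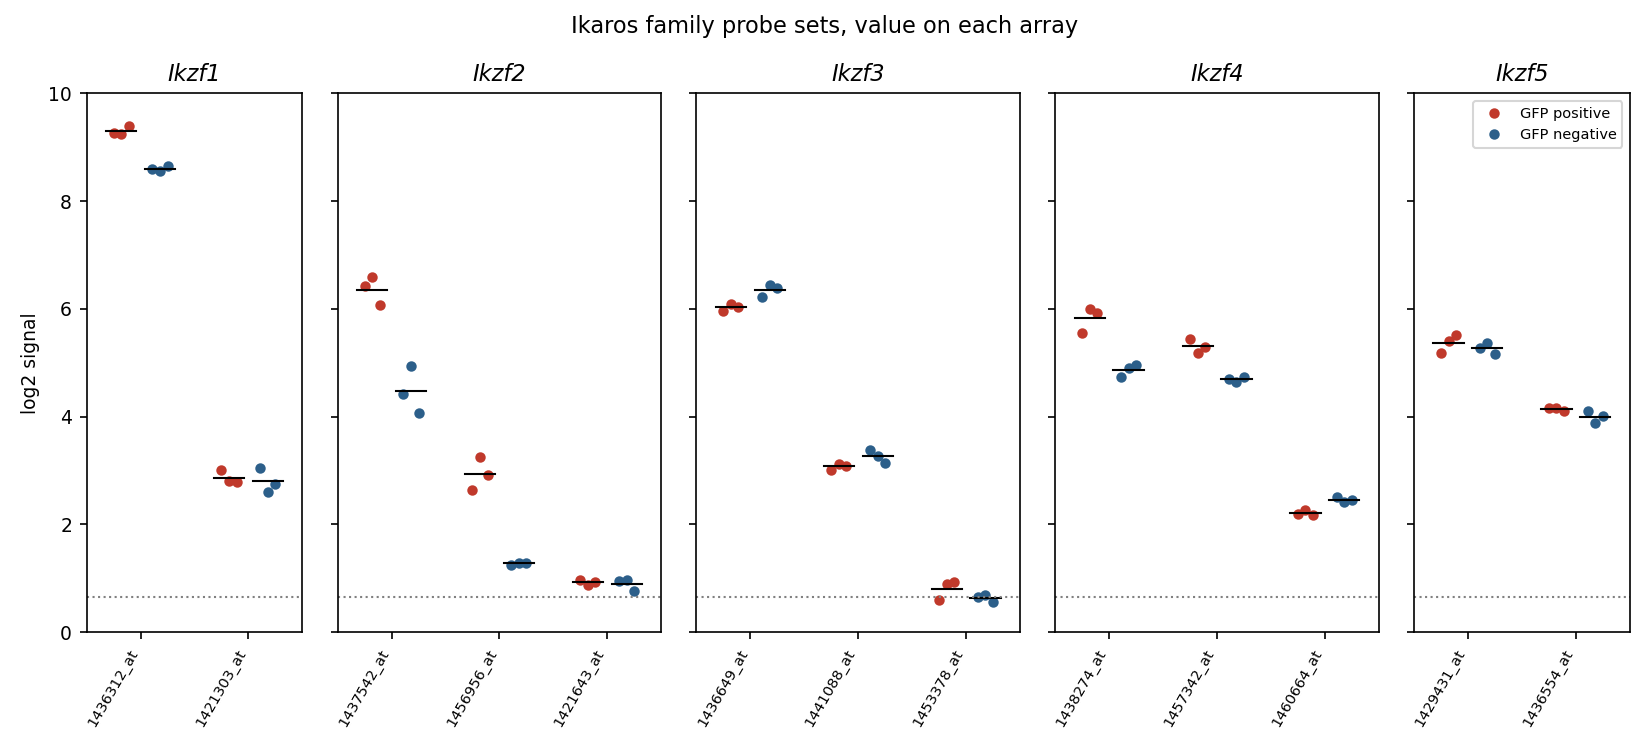
Log2 signal of the 13 Ikaros family probe sets on each array, grouped by gene, with GFP positive samples in red and GFP negative samples in blue. Points are single arrays, black bars are group means (n = 3), and the dotted line is the mean of the TrpnX control probe sets. The 3 GFP positive samples of Ikzf2 1437542_at sit between 6.08 and 6.58, above the GFP negative samples at 4.07 to 4.94.

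Ikzf2, which encodes Helios, gave the largest change of the family. On probe set 1437542_at the GFP positive samples read 6.42, 6.58 and 6.08, and the GFP negative samples 4.42, 4.94 and 4.07. The lowest GFP positive sample lay 1 log2 unit or more above the highest GFP negative sample. The mean was 6.36 ± 0.26 in GFP positive and 4.48 ± 0.44 in GFP negative cells (SD, n = 3 each), a rise of 1.88 ± 0.23 (SE), or 3.69-fold, with a limma adjusted p of 0.00088. By size of rise this probe set ranked 134 of 27022. The spread between GFP negative samples was wider than that of any other Ikaros family probe set in either group.

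A second Ikzf2 probe set, 1456956_at, moved the same way from a level near background. It read 2.64, 3.24 and 2.92 in GFP positive samples and 1.25, 1.29 and 1.29 in GFP negative samples. The GFP negative values lie at the dim filter, which stood at 1.27, with a mean of 1.28 only just above it, so no fold is given. The difference was 1.66 ± 0.15 (SE), and the limma adjusted p was 0.00032, and 0.00025 with no filter, where every probe set was tested. The third, 1421643_at, stayed below the filter, at 0.88 to 0.98 in GFP positive and 0.77 to 0.98 in GFP negative samples, and was not tested. The changes of the tested probe sets differed by 0.23 (exact permutation p = 0.5, two-sided), in a design that cannot go below 0.1, which does not show that they changed alike. When 32 was added on the linear scale, which damps low signals, the 2 rises were 1.06 and 0.21 and both still passed.

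Ikzf4, which encodes Eos, rose on its 2 bright probe sets. On 1438274_at the GFP positive samples read 5.56, 6.01 and 5.93, against 4.73, 4.91 and 4.96 in GFP negative samples, with no overlap. This was a rise of 0.96 ± 0.13 (SE), or 1.95-fold (limma adjusted p = 0.0016). On 1457342_at the GFP positive samples read 5.45, 5.19 and 5.30, and the GFP negative samples 4.70, 4.64 and 4.73. The 3 GFP negative samples lay within 0.1 log2 units of each other, and the rise was 0.62 ± 0.09 (SE), or 1.54-fold (limma adjusted p = 0.0024). With 32 added in linear units these rises were 0.54 and 0.31.

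The third Ikzf4 probe set went the other way at a low signal. Probe set 1460664_at read 2.20, 2.26 and 2.17 in GFP positive samples and 2.50, 2.41 and 2.46 in GFP negative samples. The groups did not overlap, but the change of -0.25 ± 0.08 (SE) passed only narrowly, with a limma adjusted p of 0.048. It failed whichever of the 6 samples was left out (adjusted p 0.073 to 0.13), and it failed with the replicate number as a block (adjusted p = 0.079) and with 32 added (-0.03, adjusted p = 0.10). Of 13 alternative settings it passed in 2. These were quantile normalization (-0.27, adjusted p = 0.035) and centring each array on its median (-0.36, adjusted p = 0.015). The change of this probe set differed from those of the other two by 1.21 and 0.87, each with an exact permutation p of 0.1, the smallest that 3 arrays against 3 can give, and an adjusted p of 0.23 over the 7 pairs of probe sets compared within genes. Where each probe set lies on the transcript was not analysed here.

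Ikzf1, which encodes Ikaros, rose on 1 of its 2 probe sets. On 1436312_at the GFP positive samples read 9.27, 9.24 and 9.40 and the GFP negative samples 8.60, 8.56 and 8.65. The samples of each group lay close together and the groups were well apart. The rise was 0.70 ± 0.08 (SE), or 1.63-fold (limma adjusted p = 0.0009), and was 0.66 with 32 added in linear units, so that it depended little on how low signals are treated. The other Ikzf1 probe set, 1421303_at, was dim and did not pass. It read 3.02, 2.80 and 2.78 in GFP positive and 3.06, 2.60 and 2.76 in GFP negative samples, and these overlap. Its change was 0.06, with a 95% interval of -0.25 to 0.37, so a change of the size seen on the bright probe set lies outside that interval. The 2 changes differed by 0.64 (exact permutation p = 0.1, the smallest possible, adjusted p = 0.23 over 7 pairs).

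Promoter sequences from RefSeq (GRCm38.p6, 250 bases before to 50 after each start) matched 2 of the 5 genes, with 2 starts for Ikzf1 and 1 for Ikzf5. They are shown because they set a member that rose beside a member that did not pass, and because Ikaros factors bind a core of the letters GGGAA. The core was chosen after the data were seen. Capitals mark GGGAA or its reverse complement TTCCC, and the lines run 5′ to 3′ on the gene's strand.
Ikzf1 start 1, chr11:11685675-11685974, plus strand: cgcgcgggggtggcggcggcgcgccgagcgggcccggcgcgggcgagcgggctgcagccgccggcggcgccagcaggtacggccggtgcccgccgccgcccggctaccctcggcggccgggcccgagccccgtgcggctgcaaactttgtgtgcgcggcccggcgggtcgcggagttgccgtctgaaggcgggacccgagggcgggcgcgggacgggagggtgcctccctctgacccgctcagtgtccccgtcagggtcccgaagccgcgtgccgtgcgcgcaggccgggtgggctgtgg
Ikzf1 start 2, chr11:11689927-11690226, plus strand: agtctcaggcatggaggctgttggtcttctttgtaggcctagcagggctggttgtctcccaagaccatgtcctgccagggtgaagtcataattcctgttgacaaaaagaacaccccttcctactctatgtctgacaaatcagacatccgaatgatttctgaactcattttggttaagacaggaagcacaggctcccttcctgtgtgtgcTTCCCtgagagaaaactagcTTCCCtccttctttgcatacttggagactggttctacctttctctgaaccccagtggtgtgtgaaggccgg
Ikzf5, chr7:131410429-131410728, minus strand: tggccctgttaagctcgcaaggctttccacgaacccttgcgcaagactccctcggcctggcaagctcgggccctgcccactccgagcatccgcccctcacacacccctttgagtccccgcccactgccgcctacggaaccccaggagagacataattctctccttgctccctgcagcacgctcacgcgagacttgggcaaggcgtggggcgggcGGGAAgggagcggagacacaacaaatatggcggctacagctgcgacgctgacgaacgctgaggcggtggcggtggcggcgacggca

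The first Ikzf1 promoter is 81.3% G and C and holds 0 matches, and the second is 49.0% G and C and holds 2, both as TTCCC. The Ikzf5 promoter is 65.7% G and C and holds 1 match, as GGGAA. Of 32851 RefSeq promoters of the same length, 62.7% hold the core on either strand. The longer motif TGGGAA, which contains that core, was the one planned for the search, and the shorter core was added to it. TGGGAA is in 25.6% of the RefSeq promoters and in 0 of these 3. These matches describe the letters in the windows only.

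Ikzf3, which encodes Aiolos, was the member with a lower signal in GFP positive cells. On 1436649_at the GFP positive samples read 5.96, 6.09 and 6.03 and the GFP negative samples 6.22, 6.45 and 6.39. The groups did not overlap but lay close. The change was -0.32 ± 0.09 (SE), or 1.25-fold lower (limma adjusted p = 0.033). Leaving out GFP negative 1 kept the call, and leaving out any other single sample ended it, with changes of -0.36 to -0.28 and an adjusted p of 0.056 to 0.10. Probe set 1441088_at read 3.01, 3.13 and 3.09 in GFP positive and 3.39, 3.28 and 3.15 in GFP negative samples. Its change of -0.19 did not pass (95% interval -0.41 to 0.02, limma adjusted p = 0.15). The third, 1453378_at, lay below the filter, at 0.60 to 0.93 in GFP positive and 0.56 to 0.69 in GFP negative samples.

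Ikzf5, which encodes Pegasus, did not pass on either probe set. On 1429431_at the GFP positive samples read 5.18, 5.41 and 5.52 and the GFP negative samples 5.27, 5.37 and 5.16, and the groups overlap. The change was 0.10, with a 95% interval of -0.16 to 0.36 (limma adjusted p = 0.52). On 1436554_at the GFP positive samples read 4.16, 4.17 and 4.10 and the GFP negative samples 4.10, 3.88 and 4.01. The nearest samples of the groups nearly touched, and the change was 0.15, with an interval of -0.06 to 0.35 (limma adjusted p = 0.24). Both intervals lie below the rises of Ikzf1, Ikzf2 and Ikzf4 on their brightest probe sets.

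**Figure D2:**
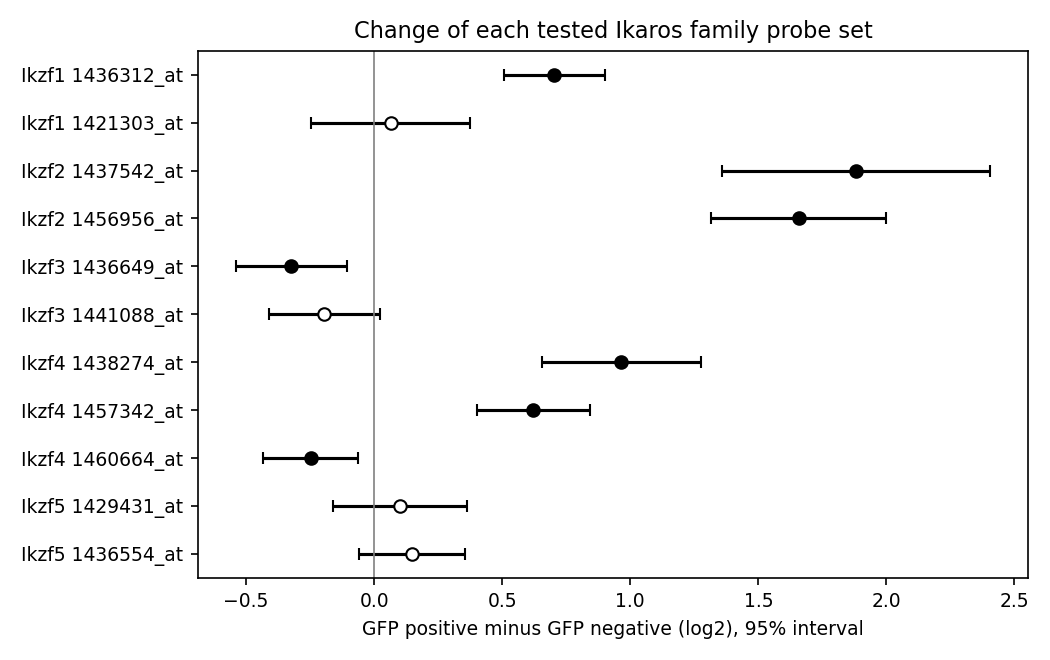
Change of each of the 11 Ikaros family probe sets above the dim filter, as GFP positive minus GFP negative on the log2 scale, with the 95% interval from limma (n = 3 each). Filled points passed an adjusted p of 0.05 and open points did not. Ikzf2 stands highest at 1.88 and 1.66, and Ikzf3 1436649_at lowest at -0.32.

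The 5 rises, with Ikzf2 1456956_at near background among them, held in each of the 14 alternative settings in which they were tested, with the same direction and an adjusted p of at most 0.033. The scale between arrays moved the smaller values. Quantile normalization and centring each array on its median changed the share of higher calls among all called probe sets to 49.9% and 39.3%, against 59.4% as deposited, and median centring shifted the median change of all tested probe sets to -0.14, against -0.02. Ikzf3 1436649_at was then at -0.44 in both settings. Ikzf5 1429431_at was at -0.04 and -0.01, so its direction depended on the scaling.

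**Figure D3:**
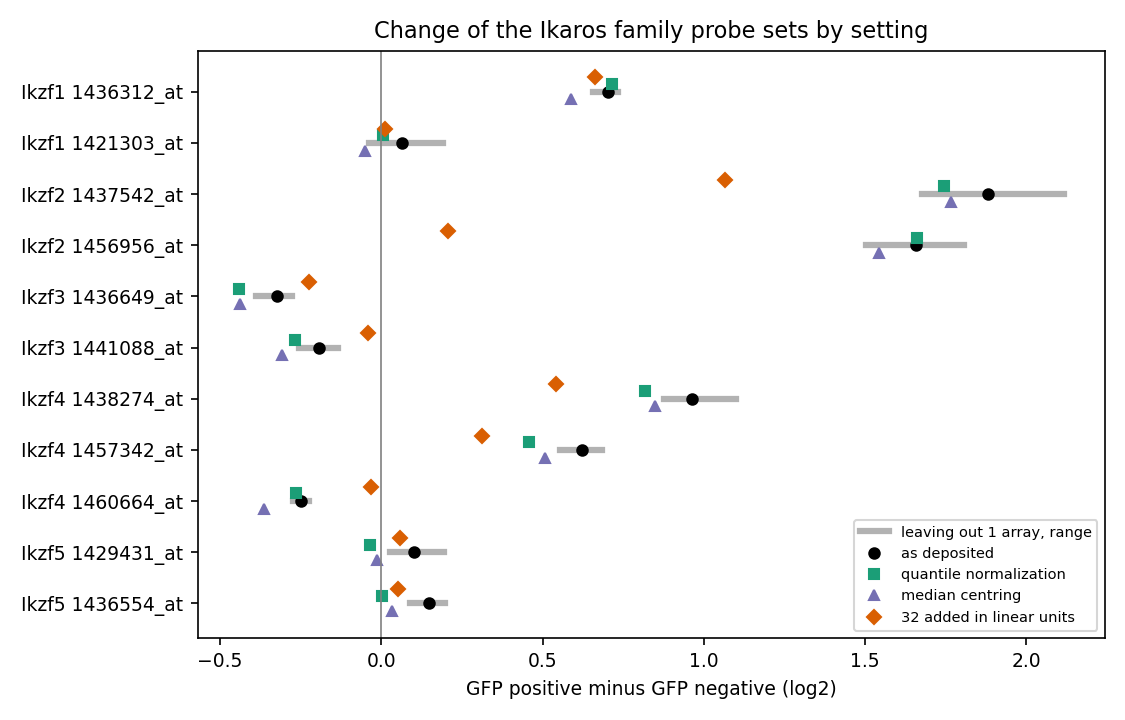
Change of the 11 Ikaros family probe sets, GFP positive minus GFP negative (log2), as deposited, after quantile normalization, after median centring and with 32 added in linear units, and, as a grey bar, the range over leaving out each array in turn. Ikzf2 1437542_at is at 1.88 as deposited and at 1.06 with 32 added, while Ikzf1 1436312_at stays between 0.59 and 0.74.

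Corepressor partners of the family were examined as a list of 17 genes, each at its brightest probe set. Among the 16 above the filter, 6 rose, 1 fell and 9 did not pass. Of all 13194 tested genes 42.1% were called, 24.6% higher and 17.5% lower, and in 53.8% the groups did not overlap. The list median was 0.16 and that of all genes -0.02. Hdac1, the deacetylase that Ikaros complexes carry, read 8.88, 8.79 and 8.76 in GFP positive and 8.28, 8.32 and 8.38 in GFP negative samples, a rise of 0.49 ± 0.08 (SE; limma adjusted p = 0.0018). Chd4 (Mi-2 beta), the remodelling ATPase that binds Ikaros, read 7.60, 7.68 and 7.77 in GFP positive and 7.11, 7.35 and 7.13 in GFP negative samples, a rise of 0.49. The GFP positive and GFP negative samples did not overlap in either gene. The related ATPase gene Chd3 rose by 0.49, Gatad2b, a scaffold of the complex, by 0.56 (0.37 with 32 added), Sin3a, the scaffold of another corepressor, by 0.43 (0.28 with 32 added) and Mta3, a subunit of the complex, by 0.33.

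Hdac2, the partner of Hdac1 in these complexes, went the other way, at 7.93 ± 0.09 in GFP positive and 8.20 ± 0.09 in GFP negative samples (SD, n = 3 each). Its change of -0.27 passed narrowly (limma adjusted p = 0.039) and failed whichever single sample was left out (adjusted p 0.051 to 0.12). It passed in 7 of 15 alternative settings, among them quantile normalization (-0.31), median centring (-0.38), 32 added (-0.24) and the replicate block (-0.27). Mta3 did not pass without GFP negative 3 or GFP positive 2 (0.29 and 0.27) or after median centring (0.21), where 5 of the list rose and 2 fell. The mean over a gene's probe sets gave 0.25 for Gatad2b and 0.47 for Chd4, with adjusted p of 0.078 and 0.061. Leaving out GFP positive 3 and GFP negative 1 together left 3 of the 6 rises. The corepressor genes Ctbp1, a partner of Eos, and Sin3b changed by 0.09 and 0.06, did not pass, and turned to -0.025 and -0.052 after median centring. For Sin3b this holds for the brightest probe set only. Its other probe sets changed by -0.13, 0.07, 0.54 and -0.01, and among these the rise of 0.54 passed (limma adjusted p = 0.0035), so Sin3b has no single result.

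Genes whose products modify Ikaros proteins, or belong to the ligase of their drug-directed degradation, formed a list of 11, of which 10 were tested. Limma called 2 higher and 0 lower, against 24.6% higher and 17.5% lower of all tested genes. At an unadjusted p under 0.05, 3 of the list were higher and 1 lower. Crbn, which encodes cereblon, the substrate receptor through which immunomodulatory drugs direct human Ikaros and Aiolos to degradation, read 7.73, 7.40 and 7.53 in GFP positive and 7.14, 7.07 and 7.19 in GFP negative samples. That is a rise of 0.42 ± 0.10 (SE; limma adjusted p = 0.012), with no overlap between groups, and 0.30 after median centring, where it did not pass (adjusted p = 0.062). Cul4b, a cullin of the same ligase, rose by 0.34, and was at 0.24 as the mean of its probe sets, where it did not pass (adjusted p = 0.0504). Csnk2a2, a catalytic subunit of casein kinase 2, which phosphorylates Ikaros, changed by -0.26, and Ppp1ca, of the phosphatase that opposes it, by 0.20, and neither passed. Csnk2a2 did pass after quantile normalization (-0.33), after median centring (-0.38), without GFP positive 2 (-0.35) and with a variance prior that is robust and follows signal (-0.26). Ppp1ca passed with that prior and with 32 added (0.19), where 4 of the list were called higher. The list median was 0.05. Neither rise passed when GFP positive 3 and GFP negative 1 were both left out.

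Reported targets of Ikaros factors moved in both directions. Among all tested genes, 24.6% were called higher and 17.5% lower. Of 28 target genes, taken from work on T and B lymphocytes, 24 lay above the filter. Of these, 8 rose, 6 fell and 10 did not pass, with a list median of -0.07. Gata3, a T cell lineage factor, rose most, by 2.25, and by 1.34 with 32 added. Dntt, which encodes the terminal transferase of antigen receptor gene assembly, read 6.47, 5.84 and 6.11 in GFP positive and 4.26, 3.80 and 4.18 in GFP negative samples, a rise of 2.06 ± 0.18 (SE; limma adjusted p = 0.00013), and 1.07 with 32 added. Its groups were well apart, and its other probe sets changed by 0.89 and 2.43. The brightest Dntt probe set is of a type that can match several transcripts. Bcl6, a repressor of lymphocyte differentiation, read 2.28, 2.03 and 2.03 in GFP positive samples and 1.03, 1.17 and 0.80, close to background, in GFP negative samples. Its GFP negative mean lay under the filter, so it was tested through its GFP positive values. Its change was 1.11, and 0.10 with 32 added, and no fold is given.

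Among cytokine targets, Ifng (interferon gamma) read 4.74, 4.99 and 4.70 in GFP positive and 2.67, 3.23 and 3.56 in GFP negative samples. Its rise was 1.66 ± 0.21 (SE; limma adjusted p = 0.00057), and 0.55 with 32 added. Il10 read 2.12, 2.93 and 2.00 in GFP positive and 3.16, 3.32 and 3.87 in GFP negative samples, a change of -1.10 (limma adjusted p = 0.012), and -0.21 with 32 added. Il2 lay below the filter in both groups, at 0.62 to 1.17 in GFP positive and 0.89 to 1.20 in GFP negative samples.

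The coreceptor genes Cd8a and Cd8b1, which Ikaros is reported to activate, rose by 1.24 and 1.15, and Ccnd2 (cyclin D2) and the receptor gene Notch1 by 0.47 and 0.30. The growth genes Myc and Cdk6 fell by 1.12 and 1.02. Cdk6 read 8.08, 8.51 and 8.54 in GFP positive and 9.37, 9.38 and 9.42 in GFP negative samples, with close agreement between GFP negative samples. The other 3 that fell were Flt3 (-0.47) and Igll1 (-0.36), both at low signal, and Bcl2 (-0.28), an inhibitor of apoptosis. With 32 added Flt3 was at -0.062 and Igll1 at -0.039, where Igll1 did not pass (adjusted p = 0.098). The calls of Notch1 and Bcl2 were lost with the replicate number as a block (adjusted p = 0.055 and 0.059). For Notch1, leaving out any single sample but GFP positive 1 also ended the call (0.22 to 0.31), and for Bcl2 any but GFP positive 3 (-0.32 to -0.22). Notch1 was at 0.18 after median centring and 0.17 as the mean of its probe sets, and failed in both. Bcl2 turned to 0.12 as the mean of its probe sets. Without GFP positive 3 and GFP negative 1 together, 7 targets rose and 3 fell.

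Genes of the regulatory T cell program, in which Helios and Eos are known to act, were read as a list of 10. Foxp3, the defining factor of those cells, lay below the filter at 0.73 to 0.77 in GFP positive and 0.98 to 1.41 in GFP negative samples. Of the 10, 7 lay above the filter: 4 rose, 2 fell and 1 did not pass, with a list median of 0.57. Over all tested genes, 24.6% were called higher and 17.5% lower. Without GFP positive 3 and GFP negative 1 together, 4 of the list rose and 1 fell. Itgae (the CD103 integrin chain) rose most, by 4.13, and by 1.39 with 32 added. Nrp1, which encodes the surface receptor neuropilin 1, read 4.53, 4.89 and 4.56 in GFP positive and 2.21, 2.45 and 2.39 in GFP negative samples, a rise of 2.31 ± 0.12 (SE; limma adjusted p = 2.9e-05), and 0.63 with 32 added. Its other probe sets changed by 2.31, 1.31 and -0.13. Entpd1 (CD39), an ectonucleotidase gene, read 4.45, 4.73 and 4.14 in GFP positive and 2.96, 3.43 and 3.28 in GFP negative samples, a rise of 1.22, and 0.38 with 32 added.

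Nt5e (CD73), the ectonucleotidase that acts after CD39, rose by 0.57 where its signal was highest and by 0.21 with 32 added, while the other probe sets changed by -0.49 and -0.27, so it has no single direction. Il2ra fell by 2.31. Ctla4, an inhibitory receptor gene, read 7.87, 8.14 and 7.70 in GFP positive and 8.38, 8.99 and 8.23 in GFP negative samples, a change of -0.63 (limma adjusted p = 0.036). Leaving out GFP negative 1, GFP negative 2, GFP positive 1 or GFP positive 3 ended the call (-0.71 to -0.40), as did adding 32 (adjusted p = 0.080) and the robust prior (adjusted p = 0.077). Tnfrsf18 (GITR), a costimulatory receptor gene, changed by 0.24 and did not pass (adjusted p = 0.16), but passed with the replicate number as a block (adjusted p = 0.041). Several genes of these lists, among them Gata3, Il2ra, Itgae and Myc, were known from these samples when the lists were written, so the lists are no independent evidence of direction.

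**Figure D4:**
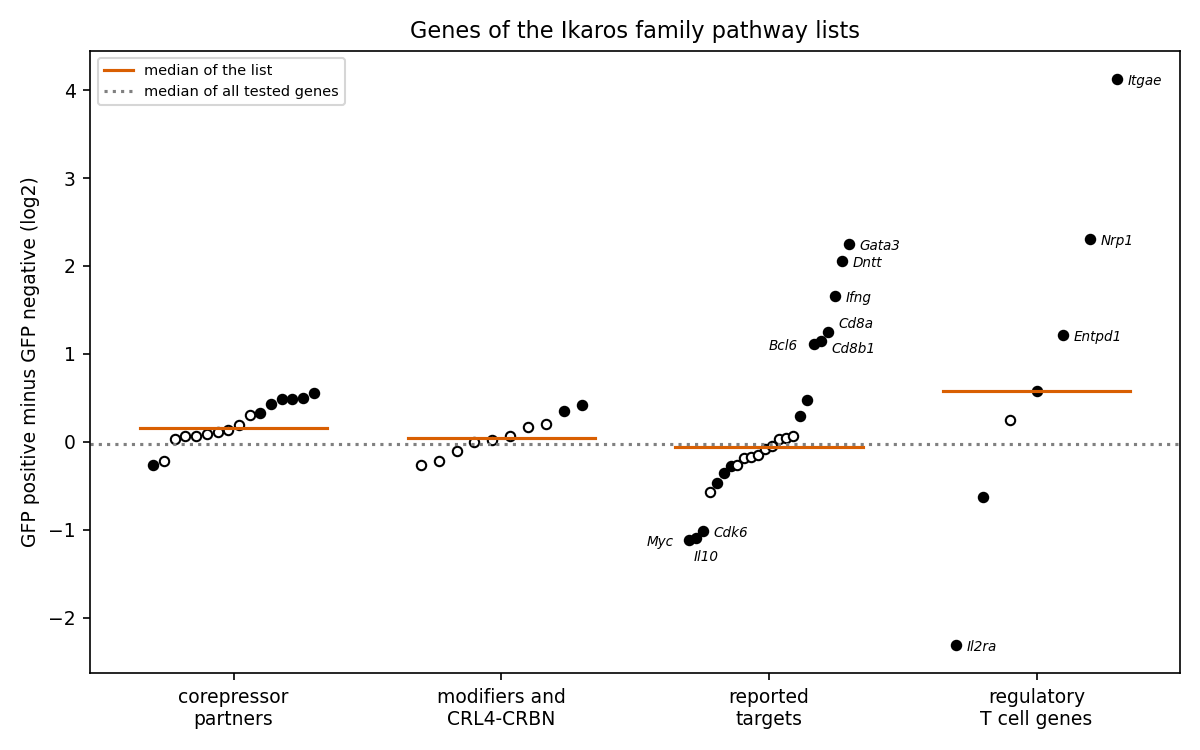
Change of each tested gene of 4 lists, GFP positive minus GFP negative (log2), sorted within the list. Filled points passed an adjusted p of 0.05, open points did not, orange bars are list medians and the dotted line is the median of all tested genes at -0.02. Genes that passed with a change beyond 0.9 in size are named, from Itgae at 4.13 to Il2ra at -2.31.

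Other spleen cells also express Ikaros family genes, and their markers were read beside the members. The samples are bulk RNA, so fewer cells of a type and less RNA per cell cannot be told apart. For B cells, which express Ikzf1 and Ikzf3, limma called 0 of 4 tested markers, and 0 at an unadjusted p under 0.05. The sum of 7 B cell markers was 5.11 to 5.38 in GFP positive and 5.18 to 5.57 in GFP negative samples (log2). Cd79b, a chain of the B cell receptor, read 4.22 to 4.55 in GFP positive and 4.34 to 4.63 in GFP negative samples.

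Of 4 tested dendritic cell markers 3 were called lower, against 17.5% of all tested genes. These were Flt3, Zbtb46 and Siglech, all at low signal. Their means were 2.07, 2.01 and 1.64 in GFP positive and 2.54, 2.49 and 1.86 in GFP negative samples. Siglech passed only narrowly (limma adjusted p = 0.048). The sum of 5 markers was 3.90 to 4.13 in GFP positive and 4.31 to 4.32 in GFP negative samples. Myeloid markers summed to 4.71 to 4.78 in GFP positive and 4.60 to 4.70 in GFP negative samples over 7 genes. Of 4 tested, 1, Cd68, was called higher, against 24.6% of all tested genes. Csf1r of the same list was at -0.32 and did not pass (adjusted p = 0.051). Natural killer markers Ncr1 and Klra8 stayed below the filter, with a sum of 1.65 to 1.91 in GFP positive and 1.64 to 1.87 in GFP negative samples. Erythroid markers summed to 2.87 to 2.88 in GFP positive and 3.02 to 3.25 in GFP negative samples over 3 genes, of which 0 of 1 tested was called, and 0 at an unadjusted p under 0.05. The part of these cells in the changes of Ikzf1, Ikzf2, Ikzf3 and Ikzf4 was not tested.

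Genes whose level followed each member most closely over the 6 arrays were named by Pearson correlation with its brightest probe set, among 13193 genes. The arrays fall into 2 groups, so a gene that differs between them correlates with any other such gene, and r over 0.95 was reached by 1527 genes for Ikzf1, 532 for Ikzf2, 339 for Ikzf3, 1093 for Ikzf4 and 12 for Ikzf5. The 3 closest had r of 0.9990 to 0.9998 for Ikzf1, 0.9961 to 0.9990 for Ikzf2, 0.9957 to 0.9970 for Ikzf3, 0.9988 to 0.9997 for Ikzf4 and 0.972 to 0.989 for Ikzf5. For Ikzf1 the closest were Ccnb2 (cyclin B2), the kinase gene Stk10 and Arhgap25, with rises of 0.83, 0.89 and 1.34 (0.72 for Arhgap25 with 32 added). For Ikzf2 they were Dnajb4, a chaperone gene, Rnf113a2 and Stradb, with rises of 1.21, 0.41 and 0.39, or 0.27, 0.25 and 0.16 with 32 added. Stradb did not pass after quantile normalization (0.24) or without GFP positive 3 and GFP negative 1 (0.41). Like Ikzf2, Dnajb4 was highest among GFP negative samples in GFP negative 2 (2.84, against 2.54 and 2.34) and lowest among GFP positive samples in GFP positive 3 (3.60, against 3.86 and 3.88). Dnajb4 was picked by its correlation with Ikzf2 over these same arrays, so this likeness follows from the choice.

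For Ikzf4 the closest genes were Parp14, Lsm14b and Ticrr, with rises of 1.01, 0.62 and 0.58 (0.32 for Ticrr with 32 added, and 0.20, which did not pass, as the mean of its probe sets). For Ikzf3 they were Mmadhc, Thyn1 and Dlat, with changes of -0.05, -0.55 and -0.37, of which that of Mmadhc did not pass. For Dlat, leaving out GFP negative 2, GFP negative 3 or GFP positive 3 ended the call (-0.36 to -0.30). For Ikzf5 they were Glud1, Pnn and Fam71d, with changes of 0.10, 0.14 and 0.07, and none of these 3 passed. The directions of Glud1, Pnn and Fam71d depended on the settings.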

How the data were processed

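Each of 6 sorted samples gave total RNA for 1 Affymetrix mouse genome 430 2.0 array, per the labels. The authors deposited log2 signal for 45101 probe sets, as the value range shows. Affymetrix Expression Console is the software in the submitters' processing notes. The probe summary method and the normalization are not stated there or elsewhere in the sources used here. Groups and replicate numbers came from the labels. The number of arrays limits the precision.

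Values were used without further normalization. Control probe sets and dim ones, with a mean below the 40th percentile (1.27), were left out. GFP positive and GFP negative samples were compared in limma 3.58.1 (R 4.3.3; lmFit and eBayes, group only, two-sided), with Benjamini-Hochberg adjustment over 27022 probe sets or, for list genes at their brightest probe set, 13194 genes. All 5 member genes matched the RefSeq table by gene ID. Differences between probe sets of a gene used exact permutation of the 6 arrays. On simulated data with 200 changed features, the probe set fit recovered 24% of changes of 0.5 and 76% of changes of 1 (log2), with 3.85% false calls, over 27022 probe sets. Over 13194 genes these were 36%, 85% and 3.2%. The simulated noise was independent between arrays and only 200 features changed, whereas 8786 probe sets were called in the data. These rates therefore describe the simulation and not the data.

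Named genes were Hdac7, every member probe set, in each list up to 4 genes by unadjusted p and those past the threshold, and the 3 genes most correlated with each member. Of the other cell types, up to 3 of the brightest markers are named. Further list genes that did not pass at their brightest probe set, such as Ctbp1, Sin3b, Il2 and Foxp3, were chosen after their values were seen. The members and lists were chosen with earlier results of these data known. The groups share replicate numbers, and same-numbered samples deviated together from their group means (correlations across genes of 0.47, 0.35 and 0.25), a pairing seen in the data and not stated in the labels. Alternatives were other scalings, 32 added in linear units, other dim filters, another variance prior, a replicate block, the mean of a gene's probe sets and samples left out.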

Additional observations from a re-analysis of the deposited data

How the results depend on the processing

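Of 152 recomputed changes of member probe sets, 129 kept their direction and side of the threshold, 17 lost a call, 1 gained one and 5 turned sign; for named genes these were 660, 56, 7 and 9 of 732. The 5 member rises held throughout. The replicate block changed no other call of a gene named above than those given for Notch1, Bcl2, Tnfrsf18 and Ikzf4 1460664_at. Among list genes not named above, Cdkn1a (-0.58, adjusted p = 0.024, against 0.17) and Gatad2a (0.30, adjusted p = 0.035, against 0.054) gained a call with it. With the block, 6 member probe sets passed, 1 of them lower, against 7 and 2. The count of lower members was also 1 with 32 added, without a dim filter, with the 60th percentile filter (which left Ikzf4 1460664_at and Ikzf2 1456956_at untested) and with the robust prior. It was 0 to 1 when each sample was left out and 0 without GFP positive 3 and GFP negative 1, a setting chosen after seeing the data. Ikzf1 1421303_at turned to -0.051 after median centring and ranged from -0.038 to 0.19 with 1 sample left out. Ikzf5 1429431_at turned to -0.037 after quantile normalization and -0.014 after median centring. Ikzf3 1441088_at passed after median centring. Median centring called 6263 probe sets and 3819 genes lower, against 3568 and 2309, and 39.6% of called genes higher, against 58.4% (49.0% after quantile normalization). Without GFP positive 3 and GFP negative 1, 4374 probe sets were called (2765 higher, 1609 lower) and 3325 genes (2074 higher, 1251 lower), against 8786 and 5557. With the mean of probe sets, Bcl2 turned to 0.12, Nt5e to -0.061 and Pnn to -0.054. After median centring Ctbp1 turned to -0.025 and Sin3b to -0.052. Glud1 turned to -0.016 and Fam71d to -0.044 after median centring, and Fam71d was -0.040 to 0.20 with 1 sample left out and -0.042 without both samples. The cause of these shifts was not tested. Signals near background limit the changes of dim probe sets.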
